A study of Mus musculus with 26 samples.

Results

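The insulin-like growth factor (IGF) axis was followed in mesenchyme, the connective tissue of an organ, sorted from the reproductive tracts of fetal mice. Its 10 genes are the ligands Igf1 and Igf2, the receptors Igf1r and Igf2r, and the binding proteins Igfbp2, Igfbp3, Igfbp4, Igfbp5, Igfbp6 and Igfbp7. They were chosen by name as rows of both RNA-seq count tables, which list 41442 gene rows each. Earlier results of these data were known when they were chosen, so their shares of calls are a description only. All 10 passed the filter on low counts in both tables, among 17858 genes tested in the fetal table and 16195 in the uterine table.

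Embryos carried a Rosa-Tomato fluorescent reporter with either Gli1-CreER, a tamoxifen-inducible recombinase expressed from the hedgehog target Gli1, or Amhr2-Cre, a recombinase expressed from the gene of the anti-Müllerian hormone receptor. Per the labels' protocols, dams received 1 mg of tamoxifen on E12.5 and E13.5, days of gestation, so the Gli1+ label marks cells that expressed Gli1 around those days and their descendants. The fetal table holds Gli1+ cells of the mesonephros, the embryonic tissue around the genital ducts, of E14.5 and of E16.5 embryos, female (XX) or male (XY), with 3 libraries in each of 4 groups. The uterine table holds Amhr2+ and Gli1+ cells of the neonatal uterus, labelled E19.5 and female, with 3 libraries in each of 2 groups. Whether libraries came from separate embryos, litters or pools is not given in the sources used here, so p-values measure the spread between these libraries only. All groups carry a Cre recombinase and the reporter, and none lacks them.

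IGF1 and IGF2 are secreted growth factors that act through the receptor tyrosine kinase IGF1R, while IGF2R, the cation-independent mannose-6-phosphate receptor, takes up IGF2 and delivers it to lysosomes. The IGF binding proteins hold the ligands outside the cell and can lengthen their life, block their access to the receptor or release them when proteases cut the binding protein. IGFBP7 is a relative with low affinity for the ligands, and IGFBP6 prefers IGF2. In the mouse, Igf2 is imprinted and expressed mainly from the paternal copy, Igf2r mainly from the maternal copy. IGF1 is known as a growth factor of the uterus and of the male genital ducts.

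Each fetal library held between 23382983 and 64602477 counts, and each uterine library between 28709191 and 37541045. All 7 mesenchyme markers, among them Pdgfra, Vim and Col1a1, averaged over 10 CPM (counts scaled to a common library size) in each of the 6 groups. Several of them differed between groups, as given below. Gli1 itself averaged 184 CPM in E14.5 XX, 228 in E14.5 XY, 50.7 in E16.5 XX and 208 in E16.5 XY cells. In the uterus Amhr2 was higher and Gli1 lower in the Amhr2+ cells, at averages of 11.1 against 4.10 CPM and 10.5 against 17.9 CPM. E14.5 XX replicate 3 stood apart in red-cell genes, with a summed 964 CPM for 7 erythroid markers against 7.21 and 25.8 in the other libraries of its group.

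Accessible chromatin at these genes can be given for the fetal cells only as a whole. A single list of 71040 ATAC-seq peaks, sites of accessible chromatin, was deposited for 8 samples of the same 4 fetal conditions, and it has no sample column, so no group can be compared. A peak lay within 1 kb of the listed start of 9 of the 10 genes, beside 79% of the genes tested in the fetal table, which is near the share of the 10. Igf2 had no peak there, but 3 peaks lay within 1 kb of some annotated start of that gene. The list places 14 peaks inside Igf1r and 9 inside Igf2r, of which the peak at chr17:12741191-12741436 covers the annotated start of Airn at base 12741311, the antisense RNA that acts in the imprinting of Igf2r.

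The 250 bases before the RefSeq start (GRCm38.p6, the mm10 build) are shown for 6 genes. They are Igf2, which has 4 listed starts, Igfbp3 with its fall over age, and Igfbp2, Igfbp5, Igfbp6 and Igfbp7, which differed by sex. Igf1 is not shown because all 250 bases of its window lie in annotated exons. Capitals mark exact matches, on either strand, to the TATA box (TATAAA), the CCAAT box (CCAAT), the GC box (GGGCGG) or the E-box (CACGTG).
Igf2 (the most downstream of its 4 starts), chr7:142657497-142657746, minus strand: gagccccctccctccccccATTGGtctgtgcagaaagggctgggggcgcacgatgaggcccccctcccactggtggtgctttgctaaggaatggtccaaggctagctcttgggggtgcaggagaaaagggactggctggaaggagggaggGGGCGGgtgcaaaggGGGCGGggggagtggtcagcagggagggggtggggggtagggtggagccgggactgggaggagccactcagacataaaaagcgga
Igfbp2 (the upstream of its 2 starts), chr1:72824230-72824479, plus strand: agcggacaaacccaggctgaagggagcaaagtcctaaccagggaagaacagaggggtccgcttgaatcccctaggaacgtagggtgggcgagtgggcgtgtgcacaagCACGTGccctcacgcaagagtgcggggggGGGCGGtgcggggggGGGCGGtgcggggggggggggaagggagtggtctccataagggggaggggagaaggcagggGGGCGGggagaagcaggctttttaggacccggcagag
Igfbp3, chr11:7213924-7214173, minus strand: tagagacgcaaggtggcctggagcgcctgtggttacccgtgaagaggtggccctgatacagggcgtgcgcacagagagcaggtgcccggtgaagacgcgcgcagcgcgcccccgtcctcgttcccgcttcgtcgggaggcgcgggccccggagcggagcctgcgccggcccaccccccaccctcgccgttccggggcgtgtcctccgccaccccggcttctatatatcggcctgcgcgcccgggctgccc
Igfbp5, chr1:72874866-72875115, minus strand: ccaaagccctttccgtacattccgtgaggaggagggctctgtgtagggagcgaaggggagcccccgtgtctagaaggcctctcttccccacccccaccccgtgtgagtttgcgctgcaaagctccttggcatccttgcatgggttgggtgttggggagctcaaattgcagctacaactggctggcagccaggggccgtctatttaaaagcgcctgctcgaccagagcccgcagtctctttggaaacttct
Igfbp6, chr15:102143936-102144185, plus strand: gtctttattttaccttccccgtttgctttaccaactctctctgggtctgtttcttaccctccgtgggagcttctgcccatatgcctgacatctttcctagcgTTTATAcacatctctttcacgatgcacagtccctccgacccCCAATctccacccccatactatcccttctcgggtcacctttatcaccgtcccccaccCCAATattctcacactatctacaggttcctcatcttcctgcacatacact
Igfbp7, chr5:77408046-77408295, minus strand: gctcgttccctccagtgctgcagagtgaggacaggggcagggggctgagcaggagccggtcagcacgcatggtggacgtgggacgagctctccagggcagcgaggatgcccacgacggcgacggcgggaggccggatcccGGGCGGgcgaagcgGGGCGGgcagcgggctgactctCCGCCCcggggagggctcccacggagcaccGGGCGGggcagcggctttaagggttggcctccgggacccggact

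These windows differ in base composition and in motifs. The Igfbp7 window holds 4 GC boxes and is 74% G and C, and a peak covers 241 of its 250 bases. The Igfbp3 window is 73.2% G and C, lies wholly inside a peak and holds no exact match to the 4 motifs. Among the windows shown, only that of Igfbp6 holds an exact match to TATAAA, and it lies on the opposite strand (TTTATA as printed). Looser TATA-like strings were not searched, such as tatatat near the end of the Igfbp3 window and tatttaaa in that of Igfbp5. The Igfbp6 window has 2 CCAAT boxes and is 49.6% G and C, below the median of 52.4% over 32851 RefSeq windows. The nearest peak begins 42 bases away. Of the windows not shown, that of Igfbp4 also holds an exact TATAAA match, and those of the other Igf2 starts are 50.8%, 47.6% and 68.8% G and C.

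The Igfbp2 window holds 3 GC boxes and an E-box, while that of its neighbour Igfbp5 holds no exact match to the motifs. In the window before the most downstream Igf2 start, 113 bases lie in a peak, and a CCAAT box and 2 GC boxes are present. The GLI motif searched (GACCACCCA) was found in no window of the 10 genes, and in 0.225% of all windows. Among all windows the TATA box was found in 12.4%, the CCAAT box in 33.9%, the GC box in 32.7% and the E-box in 6.02%, and 41.4% overlapped a peak. A match is a string of letters only, and no match says nothing about a factor's binding elsewhere.

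Binding protein transcripts together outnumbered those of the ligand Igf1 and of the receptors in each group. Levels of different genes are given as CPM per kilobase of annotated exons, averaged over 3 libraries. Igfbp5 (chr1:72857932-72874884), which binds the extracellular matrix as well as IGFs, was the most abundant of the 9 genes ranked in all 6 groups. It measured 748 ± 23.4 (SD, n = 3) in E14.5 XX, 586 ± 34.1 in E14.5 XY, 737 ± 66.1 in E16.5 XX and 327 ± 44.5 in E16.5 XY. Among 14555 fetal genes with an exon length, Igfbp5 ranked 21st, 26th, 27th and 64th in the same order.

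Igf1r, at 13.7 to 19.4 CPM per kilobase in the 4 fetal groups, and Igfbp6, at 7.39 to 27.6, had the lowest levels. Igf1r was last in both XY groups and Igfbp6 in both XX groups, although in E14.5 XY the libraries of Igfbp6 and Igf1r overlapped. Igf2r measured 68.5 to 75.7 in the fetal groups, and in each its level was several times that of Igf1r. At E16.5 Igf2r, Igf1, Igfbp3 and Igfbp7 each overlapped the next in the XX order, as did Igfbp4, Igfbp2 and Igfbp7, and Igfbp3 and Igf1, in the XY order. Igf1 and Igfbp7 overlapped in E14.5 XX, and Igfbp2 and Igf2r, and Igf1 and Igfbp6, in E14.5 XY.

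Igf2 was left out of this order because its count is uncertain. Of its 5723 annotated exon bases, 62.8% are also exons of the protein-coding model Gm49394 on the same strand (chr7:142650769-142669942), whose row held 0 counts in all 12 fetal libraries and 4 counts in total in each uterine group. How reads that fall on 2 genes were counted is not given in the sources used here. Comparisons of Igf2 between groups therefore rest on whichever of its reads were counted, and its level is not set beside other genes. Igfbp7 shares 85 exon bases (7.03%) with Polr2b on the opposite strand.

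The make-up of the binding protein pool differed by sex and age. The 6 binding proteins summed to 1370 ± 10.6 CPM per kilobase (SD, n = 3) in E14.5 XX, 1124 ± 14 in E14.5 XY, 1172 ± 88.6 in E16.5 XX and 897 ± 91.8 in E16.5 XY. At each age no XY library reached the XX range. Igfbp5 made up 54.6 ± 1.29%, 52.1 ± 2.88%, 62.8 ± 1.07% and 36.4 ± 1.36% of the sum in the same order. In E16.5 XY cells Igfbp2 held 18.9 ± 0.335% and Igfbp7 17.5 ± 2.33%, beside 8.21 ± 0.475% and 4.16 ± 0.357% in E16.5 XX. Igfbp3 held 21.3 ± 1.33% at E14.5 in XX and 5.28 ± 0.649% at E16.5.

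**Figure D1:**
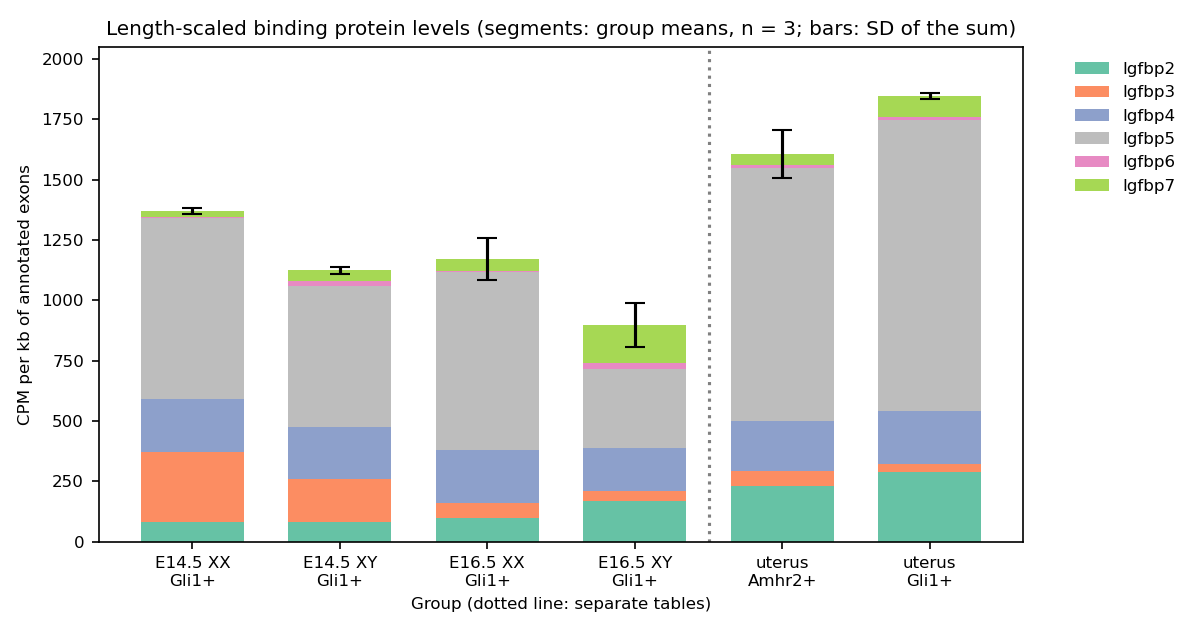
Stacked mean levels of the 6 IGF binding proteins in CPM per kilobase of annotated exons, by group (segments are means of 3 libraries, error bars the SD of the sum). Igfbp5 is the tallest segment in each group, and it shrinks to 36.4% in E16.5 XY cells. There the segments of Igfbp2 and Igfbp7 are taller than in the other fetal groups. The dotted line separates 2 tables that were made with different kits.

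At E14.5 fewer genes of the axis were called between XX and XY cells than at E16.5. Tests were edgeR's quasi-likelihood test with Benjamini-Hochberg adjustment over all genes tested, with an adjusted p under 0.05 counted as called. Of the 10 genes 3 were called, beside 6.28% of all genes: Igfbp5 was higher in XX (2.59% of all genes were called higher), and Igfbp6 and Igfbp7 were lower (3.69% called lower). The median log2 fold change of the 10 was 0.01, beside -0.01 over all genes, and the median absolute change was 0.11 beside 0.14.

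Igfbp6 (chr15:102144362-102149511) measured 7.72, 8.04 and 9.09 CPM in the 3 E14.5 XX libraries and 20.5, 22.2 and 22.6 in the XY libraries. Every XY library lay above every XX library, and the log2 fold change was -1.40 ± 0.102 (SE, edgeR adjusted p = 9.31e-07). Igfbp7 (chr5:77349240-77408041) measured 27.9, 27.5 and 27.6 CPM in XX and 40.3, 64.2 and 60.6 in XY, again without overlap, with a log2 fold change of -1.0 ± 0.125 (edgeR adjusted p = 0.000234). In bulk samples, fewer cells of a type and less RNA per cell cannot be told apart. The summed level of 5 smooth muscle markers was 302 to 325 CPM in XX and 604 to 885 in XY, with none of the 5 at 0 and Acta2, Myh11 and Cnn1 lower in XX; their part in the Igfbp6 and Igfbp7 differences was not tested. Krt18, Foxl2, Ddx4 and Gli1 were also lower in XX at E14.5, and Pdgfrb, Emcn, Tyrobp and Amhr2 higher. Their part was not tested either.

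Igfbp5 measured 4457, 4369 and 4645 CPM in E14.5 XX and 3692, 3293 and 3570 in XY. The groups did not overlap, and the log2 fold change was 0.35 ± 0.0929 (SE, edgeR adjusted p = 0.0338). This call was lost on leaving out any XX library or XY replicate 2 or 3 (adjusted p 0.0784 to 0.135) and with scaling by library size alone (0.0681). Igfbp3 (chr11:7206086-7213923), the main carrier of IGFs in adult blood, measured 930, 955 and 858 CPM in XX and 592, 586 and 503 in XY. Its groups did not overlap either, but with a log2 fold change of 0.71 ± 0.203 it missed the threshold (edgeR adjusted p = 0.0747). It passed with DESeq2 (0.0225) and in a fit of these 6 libraries alone (0.000147).

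The other 6 genes were not called at E14.5. Igf1 measured 244, 242 and 220 CPM in XX and 239, 192 and 231 in XY, so the groups overlapped (log2 fold change 0.09 ± 0.0798, edgeR adjusted p = 0.597). Igf2, Igf2r, Igfbp2 and Igfbp4 overlapped as well, with log2 fold changes from -0.07 to 0.04. Igf1r was non-overlapping, at 323 to 327 CPM in XX and 287 to 320 in XY, yet its log2 fold change of 0.12 ± 0.0635 was not called.

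**Figure D2:**
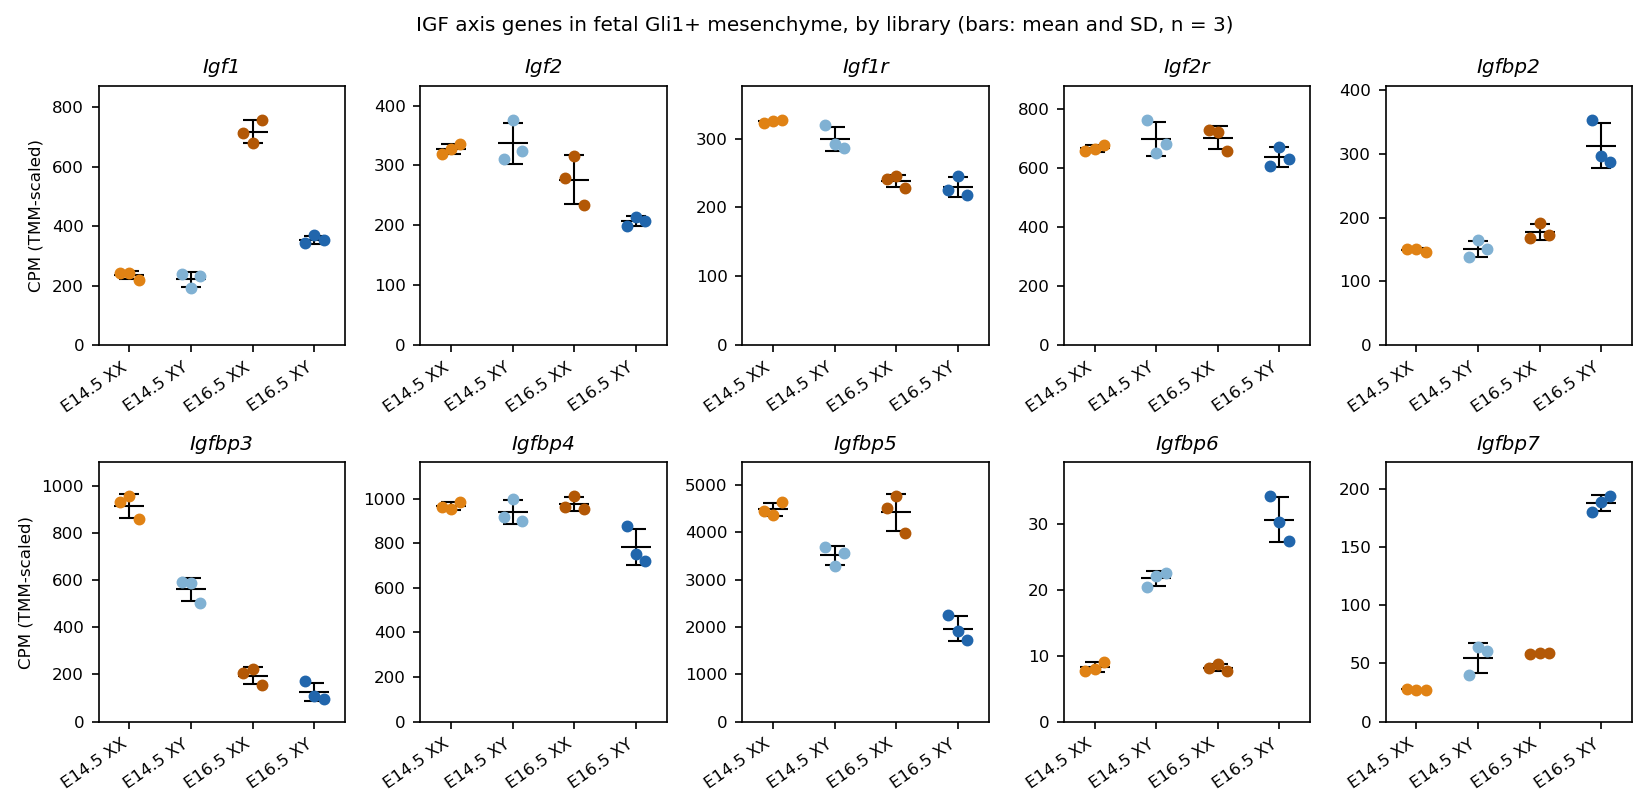
Normalised level in CPM of each of the 10 genes in every fetal library, with group mean and SD (n = 3) in black and each panel on its own scale from 0. Igf1 rises most in E16.5 XX, Igfbp3 is low in both E16.5 groups, and Igfbp2, Igfbp6 and Igfbp7 are highest in E16.5 XY, where Igfbp5 is lowest.

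By E16.5 the ligands and all 6 binding proteins differed between the sexes, and neither receptor was called. Igf1, Igf2, Igfbp3, Igfbp4 and Igfbp5 were higher in XX, while Igfbp2, Igfbp6 and Igfbp7 were lower. The 8 calls among 10 genes stood beside 27.3% of all genes called, with 13.2% higher and 14.1% lower. The median absolute log2 fold change of the 10 was 0.73, beside 0.21 over all genes.

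Igf1 (chr10:87858265-87937042) measured 714, 680 and 758 CPM in the E16.5 XX libraries and 342, 369 and 352 in XY. The lowest XX library was well above the highest XY library, and the log2 fold change was 1.02 ± 0.0802 (SE, edgeR adjusted p = 1.38e-07), a ratio of 2.03. Igf2 (chr7:142650766-142666816) measured 279, 316 and 234 CPM in XX and 198, 215 and 207 in XY. Its groups were closer but did not overlap, and the log2 fold change was 0.42 ± 0.0939 (edgeR adjusted p = 0.00339). The cells had been sorted for the reporter of the Gli1 lineage, and the pan-leukocyte marker Ptprc averaged 0.623 CPM in XX and 0.152 in XY. Immune markers summed to 25.9 to 66.9 CPM in XX and 11.4 to 45.2 in XY. Most of each sum was Cd68, which averaged 34.5 CPM in XX and 30.8 in XY and was not called. Of the 4 tested, Csf1r (7.71 against 2.01 CPM) and Tyrobp (1.16 against 0.275) were higher in XX. The part of these markers in the Igf1 difference was not tested.

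The receptors gave small differences at E16.5. Igf1r (chr7:67952827-68233668) measured 241, 246 and 229 CPM in XX and 226, 246 and 218 in XY, with a log2 fold change of 0.05 ± 0.0635 (SE, edgeR adjusted p = 0.588). Igf2r (chr17:12682406-12769664) measured 730, 723 and 659 CPM in XX and 608, 673 and 633 in XY, with a log2 fold change of 0.14 ± 0.0707 (edgeR adjusted p = 0.153). The sexes overlapped for both receptors.

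The neighbours Igfbp2 and Igfbp5 differed in opposite directions. They lie end to end on chromosome 1, with 5457 bases between their 3′ ends. Igfbp5 measured 4519, 4766 and 3989 CPM in E16.5 XX and 2252, 1921 and 1723 in XY. Igfbp2 (chr1:72824503-72852474), a binding protein abundant in fetal tissues, measured 169, 192 and 172 CPM in XX and 354, 297 and 288 in XY. Neither gene's groups overlapped. The log2 fold change was 1.17 ± 0.0940 for Igfbp5 (SE, edgeR adjusted p = 1.70e-07) and -0.82 ± 0.0832 for Igfbp2 (edgeR adjusted p = 2.08e-06).

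Igfbp6 and Igfbp7 were again lower in XX. Igfbp6 measured 8.20, 8.77 and 7.68 CPM in XX and 34.3, 30.4 and 27.5 in XY, a log2 fold change of -1.90 ± 0.0995 (SE, edgeR adjusted p = 1.88e-09). Igfbp7 measured 58.1, 58.7 and 59.4 CPM in XX and 180, 189 and 194 in XY, a log2 fold change of -1.68 ± 0.122 (edgeR adjusted p = 1.64e-07). The XY libraries of each gene sat far above all XX libraries. Smooth muscle markers summed to 464 to 564 CPM in XX and 1699 to 2856 in XY, with 4 of 5 lower in XX and none at 0, and 4 of 5 cell cycle markers were also lower in XX (887 to 1070 CPM summed, against 1086 to 1596). Endothelial Cdh5 and Kdr and mesothelial Upk3b and Msln were also lower in XX, at 2.45 against 7.08 CPM for Cdh5 and 13.8 against 25.5 for Upk3b, as were Ddx4, Dazl, Nr5a1, Foxl2 and Krt18. Emcn, Hspa1a and Hspa1b were higher in XX, at 151 against 14.1 CPM for Hspa1a. Mesenchyme markers went both ways. Pdgfrb, Col1a1 (22432 against 16806 CPM) and Col1a2 were higher in XX, and Pdgfra (646 against 1175) and Tcf21 (123 against 278) lower. Gli1 was lower and Amhr2 higher in XX. The part of any of these markers in the E16.5 differences was not tested.

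Igfbp4 and Igfbp3 showed smaller excesses in XX. Igfbp4 (chr11:99041244-99054392), which is known to restrain IGF action until it is cut by the protease PAPP-A, measured 962, 1011 and 952 CPM in XX and 877, 753 and 722 in XY, without overlap. Its log2 fold change was 0.31 ± 0.0740 (SE, edgeR adjusted p = 0.00477). Igfbp3 measured 207, 224 and 153 CPM in XX and 171, 108 and 96.8 in XY, so that the lowest XX library lay below the highest XY library. Its log2 fold change of 0.64 ± 0.204 passed the threshold narrowly (edgeR adjusted p = 0.0410), and the call was lost without XX replicate 1 or 2 or XY replicate 2 or 3 (0.116 to 0.144), with scaling by library size alone (0.0760), without the filter (0.108) and in a fit of these 6 libraries (0.151).

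Between E14.5 and E16.5 the ligands moved in opposite directions in both sexes. Igf1 rose and Igf2 fell, Igf1r fell, and Igfbp3 fell most. In XX cells 6 of the 10 genes were called, beside 39.6% of all genes: 3 rose (21.0% of all genes) and 3 fell (18.6%). In XY cells 9 were called, beside 23.3% of all genes: 4 rose (13.1%) and 5 fell (10.2%). The XX share of 6 in 10 stood nearer to its background than the XY share, and the median absolute log2 change was 0.25 in XX (0.29 over all genes) and 0.69 in XY (0.20 over all genes).

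Igf1 rose 3.05-fold in XX, from 220 to 244 CPM to 680 to 758, with a log2 fold change of 1.61 ± 0.0815 (SE, edgeR adjusted p = 1.08e-09). In XY it rose 1.60-fold, from 192 to 239 CPM to 342 to 369 (log2 fold change 0.68 ± 0.0799, edgeR adjusted p = 1.22e-05). The ages did not overlap in either sex. Other markers moved with age too: in XX the immune markers Csf1r and Tyrobp and the dissociation response genes Jun, Hspa1a and Hspa1b rose, and 4 of 5 cell cycle and 3 of 5 endothelial markers fell. In XY Tyrobp rose among 4 immune markers, Cdh5 and Tek rose and Emcn fell among 5 endothelial markers, and no cell cycle or dissociation response gene was called. Among 7 mesenchyme markers, Vim, Col1a1, Col1a2 and Col3a1 rose and Pdgfrb fell in both sexes. Pdgfra fell in XX, and Tcf21 rose in XY. Amhr2 fell in both sexes and Gli1 in XX. The part of these markers in the changes with age was not tested. Igf2 fell by 0.71 ± 0.0941 on the log2 scale in XY, from 310 to 376 CPM to 198 to 215 (edgeR adjusted p = 4.39e-05). In XX it fell by 0.25 ± 0.0938, from 320 to 336 CPM to 234 to 316 (edgeR adjusted p = 0.0486). That XX call was at the threshold: it was lost in 7 of 12 alternatives, among them without any E14.5 XX library or E16.5 XX replicate 1 or 3 (0.0840 to 0.224).

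Igf1r fell by 0.45 ± 0.0636 on the log2 scale in XX and by 0.38 ± 0.0635 in XY (SE, edgeR adjusted p = 5.41e-05 and 0.000370), from 323 to 327 and 287 to 320 CPM at E14.5 to 229 to 246 and 218 to 246 at E16.5. No E16.5 library reached the E14.5 range of its sex. Igf2r was not called in either sex, with log2 fold changes of 0.08 ± 0.0707 in XX and -0.13 ± 0.0707 in XY and overlapping ages. Its group means spanned 0.14 on the log2 scale, the narrowest range of the 10 genes.

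Igfbp3 fell to 0.213 of its E14.5 level in XX and to 0.223 in XY. In XX it went from 858 to 955 CPM to 153 to 224, and in XY from 503 to 592 to 96.8 to 171. The log2 fold changes were -2.23 ± 0.211 and -2.16 ± 0.211 (SE, edgeR adjusted p = 1.88e-05 and 3.42e-05). The ages were far apart in both sexes, and the span of its group means, 2.91 on the log2 scale, was the widest of the 10 genes.

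Igfbp7 rose in both sexes, 2.13-fold in XX and 3.40-fold in XY (log2 fold changes 1.09 ± 0.125 and 1.77 ± 0.123, edgeR adjusted p = 1.21e-05 and 1.39e-07), and the ages did not overlap. Of 5 smooth muscle markers, 3 rose and Tagln fell in XX, and all 5 rose in XY, from the summed levels given above. Their part in the Igfbp7 rise was not tested. Igfbp2 rose 2.07-fold in XY, from 139 to 165 CPM to 288 to 354 (log2 fold change 1.05 ± 0.0837, edgeR adjusted p = 2.16e-07). In XX its rise was 1.19-fold, from 146 to 151 CPM to 169 to 192 (log2 fold change 0.25 ± 0.0832, edgeR adjusted p = 0.0267), and this call was lost without any E14.5 XX library or E16.5 XX replicate 2 (0.0623 to 0.121) and with scaling by library size alone (0.0873).

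Igfbp5 fell by 0.84 ± 0.0934 on the log2 scale in XY (SE, edgeR adjusted p = 7.04e-06), without overlap. In XX its ages overlapped, at 4369 to 4645 CPM and 3989 to 4766 (log2 fold change -0.02 ± 0.0927, edgeR adjusted p = 0.878). Igfbp6 rose in XY (log2 fold change 0.49 ± 0.0941, edgeR adjusted p = 0.00119) and had a log2 fold change of -0.01 ± 0.105 in XX, where the ages overlapped. Igfbp4 fell by 0.26 ± 0.0740 in XY (edgeR adjusted p = 0.0177), a call lost without E14.5 XY replicate 2 or E16.5 XY replicate 2 or 3 (0.0600 to 0.0991) and in a fit of these 6 libraries (0.102), and its log2 fold change in XX was 0.01 ± 0.0739.

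The change with age differed between the sexes for 6 of the 10 genes, beside 10% of all genes. The interaction is the XX minus XY log2 difference at E16.5 less that at E14.5. It was positive for Igf1 (0.93 ± 0.113, SE, edgeR adjusted p = 6.45e-05), Igfbp5 (0.82 ± 0.131, 0.000700) and Igf2 (0.46 ± 0.133, 0.0371), beside 4.66% of all genes. It was negative for Igfbp2 (-0.80 ± 0.118, edgeR adjusted p = 0.000331), Igfbp7 (-0.68 ± 0.172, 0.0210) and Igfbp6 (-0.50 ± 0.141, 0.0320), beside 5.36% of all genes.

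Igfbp5, Igfbp6 and Igfbp7 were called between the sexes at both ages, with the larger difference at E16.5, while Igf1, Igf2 and Igfbp2 were called at E16.5 and not at E14.5. Among markers, the interaction was called for smooth muscle Myh11 and Tagln, cell cycle Mki67 and Ccnb1, Cdh5, Pdgfra, Tcf21, Nr5a1 and Gli1, all negative, and for Amhr2, positive; their part in it was not tested. Igfbp3 differed little in its fall (interaction -0.07 ± 0.287, edgeR adjusted p = 0.925), and the width of that error leaves a difference of moderate size undetectable. Igf1r (-0.07 ± 0.0898), Igf2r (0.21 ± 0.10) and Igfbp4 (0.27 ± 0.105) were not called. Without E14.5 XX replicate 3, the library high in red-cell genes, 3 of the 6 calls were made, and Igf2, Igfbp6 and Igfbp7 missed the threshold (adjusted p 0.0652, 0.105 and 0.0508). Igfbp7 also missed it without E14.5 XX replicate 1 (0.0547) or E16.5 XY replicate 2 (0.0501). Igf2 passed only without E14.5 XY replicate 1, E16.5 XX replicate 3 or E16.5 XY replicate 2, and Igfbp6 only without E14.5 XX replicate 1, E16.5 XX replicate 2 or E16.5 XY replicate 1 or 3, with adjusted p up to 0.123 and 0.105 without the other libraries. With scaling by library size alone the Igfbp6 interaction missed the threshold (0.0621). Igfbp4 passed without E16.5 XY replicate 1 (0.0122). The calls of Igf1, Igfbp2 and Igfbp5 were made in all 17 alternatives.

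**Figure D3:**
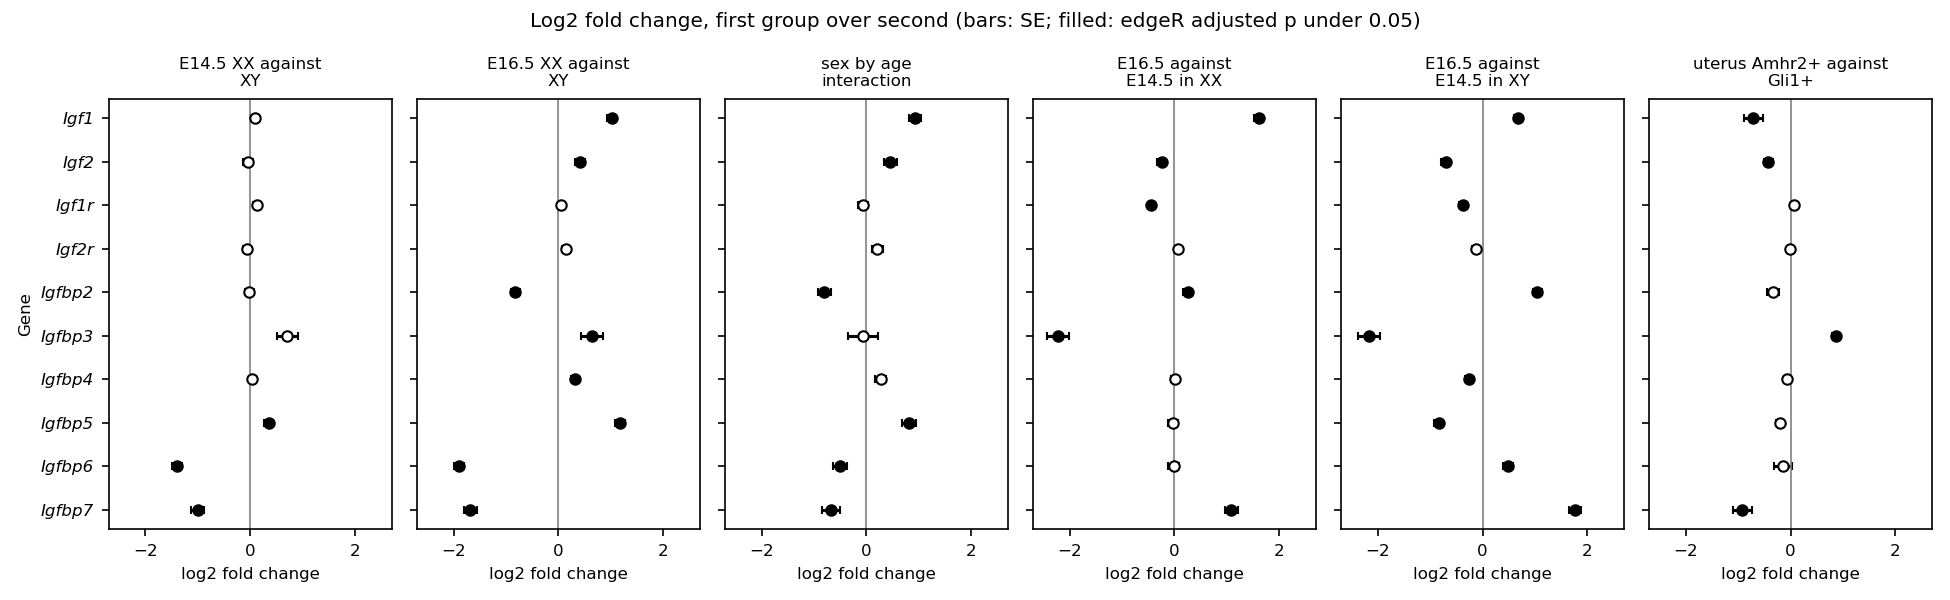
Log2 fold change (first group over second) with SE for each gene in 6 comparisons, filled where the edgeR adjusted p was under 0.05. Igf1 and Igfbp5 lie to the right and Igfbp2, Igfbp6 and Igfbp7 to the left at E16.5, Igfbp3 lies near -2 in both age comparisons, and the receptors stay near 0 between sexes and between uterine populations.

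In the neonatal uterus Amhr2+ and Gli1+ cells differed in 4 of the 10 genes, a share of calls beside 23.9% of all genes. Igfbp3 was higher in Amhr2+ cells (10.1% of all genes were), and Igf1, Igf2 and Igfbp7 were lower (13.7%). The median absolute log2 fold change of the 10 was 0.27, beside 0.22 over all genes. Igfbp5 led the order of levels here too, at 1049 ± 99.3 CPM per kilobase (SD, n = 3) in Amhr2+ and 1208 ± 29.6 in Gli1+ cells, followed by Igfbp2 at 230 ± 13.1 and 289 ± 49.9. The 6 binding proteins summed to 1605 ± 98.8 and 1848 ± 11.8 CPM per kilobase, without overlap, of which Igfbp5 made up 65.3 ± 2.25% and Igfbp3 3.95 ± 0.543% in Amhr2+ and 1.88 ± 0.0192% in Gli1+ cells. In Gli1+ cells Igfbp4 overlapped Igf1, and Igf1r overlapped Igfbp6, while Igf2r overlapped Igfbp3 in Amhr2+ cells.

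Igfbp3 measured 196, 184 and 213 CPM in the Amhr2+ libraries and 108, 107 and 110 in the Gli1+ libraries. The groups were well apart, and the log2 fold change was 0.86 ± 0.0667 (SE, edgeR adjusted p = 8.63e-05). Igf2 measured 140, 121 and 155 CPM in Amhr2+ and 189, 189 and 181 in Gli1+ cells, again without overlap, with a log2 fold change of -0.43 ± 0.0889 (edgeR adjusted p = 0.0108). Both calls were made in all 11 alternatives.

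Igf1 measured 1281, 1469 and 833 CPM in Amhr2+ cells and 1929, 1848 and 2081 in Gli1+ cells. Amhr2+ replicate 3 was the lowest, but all Amhr2+ libraries lay below all Gli1+ libraries (log2 fold change -0.71 ± 0.190, SE, edgeR adjusted p = 0.0356). The Igf1 call was lost without Amhr2+ replicate 1 or any Gli1+ library (0.0734 to 0.0865), without the filter (0.168) and with a replicate block (0.114). Igfbp7 measured 60.8, 67.5 and 39.5 CPM in Amhr2+ and 107, 114 and 98.3 in Gli1+ cells, with the same library lowest and no overlap (log2 fold change -0.93 ± 0.183, edgeR adjusted p = 0.0117). Without the filter it missed the threshold (0.0688).

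Marker levels also differed between the uterine populations. Mesenchyme markers summed to 26622 to 28467 CPM in Amhr2+ and 54890 to 61829 in Gli1+ cells, with 5 of 7 lower in Amhr2+. The 5 were Vim, Tcf21, Col1a1, Col1a2 and Col3a1, and most of the sum came from the collagen genes, such as Col1a1 at 10944 against 21528 CPM. Pdgfra (579 against 564 CPM) and Pdgfrb (505 against 500) were not called. Smooth muscle markers summed to 1117 to 1760 CPM and 2093 to 2321, with Acta2 lower among 5. Epithelial markers summed to 49.2 to 49.8 CPM and 17.9 to 28.8, with Epcam, Krt8 and Krt18 higher in Amhr2+ among 5 tested and Pax2 and Pax8 under 1 CPM in both. Mki67, Top2a, Krt19 and Foxl2 were higher in Amhr2+ cells, and the 3 erythroid markers tested, Ddx4, Tek and Emcn were lower. Erythroid markers summed to 1.67 to 2.46 CPM in Amhr2+ and 7.66 to 8.52 in Gli1+ cells. Their part in the differences of Igf1, Igf2, Igfbp3 and Igfbp7 was not tested.

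The receptors were not called in the uterus, with log2 fold changes of 0.06 ± 0.0627 for Igf1r and -0.01 ± 0.0650 for Igf2r (SE, edgeR adjusted p = 0.499 and 0.964) and overlapping groups. Igfbp2 and Igfbp5 were lower in every Amhr2+ library than in any Gli1+ library but missed the threshold, with log2 fold changes of -0.33 ± 0.115 and -0.20 ± 0.0745 (edgeR adjusted p = 0.0725 and 0.0824). Igfbp2 passed with DESeq2 (0.0382), with a replicate block (0.0153) and without Gli1+ replicate 1 (0.0485), and Igfbp5 with the block (0.0383). Igfbp4 and Igfbp6 overlapped, at log2 fold changes of -0.07 ± 0.0596 and -0.14 ± 0.174.

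**Figure D4:**
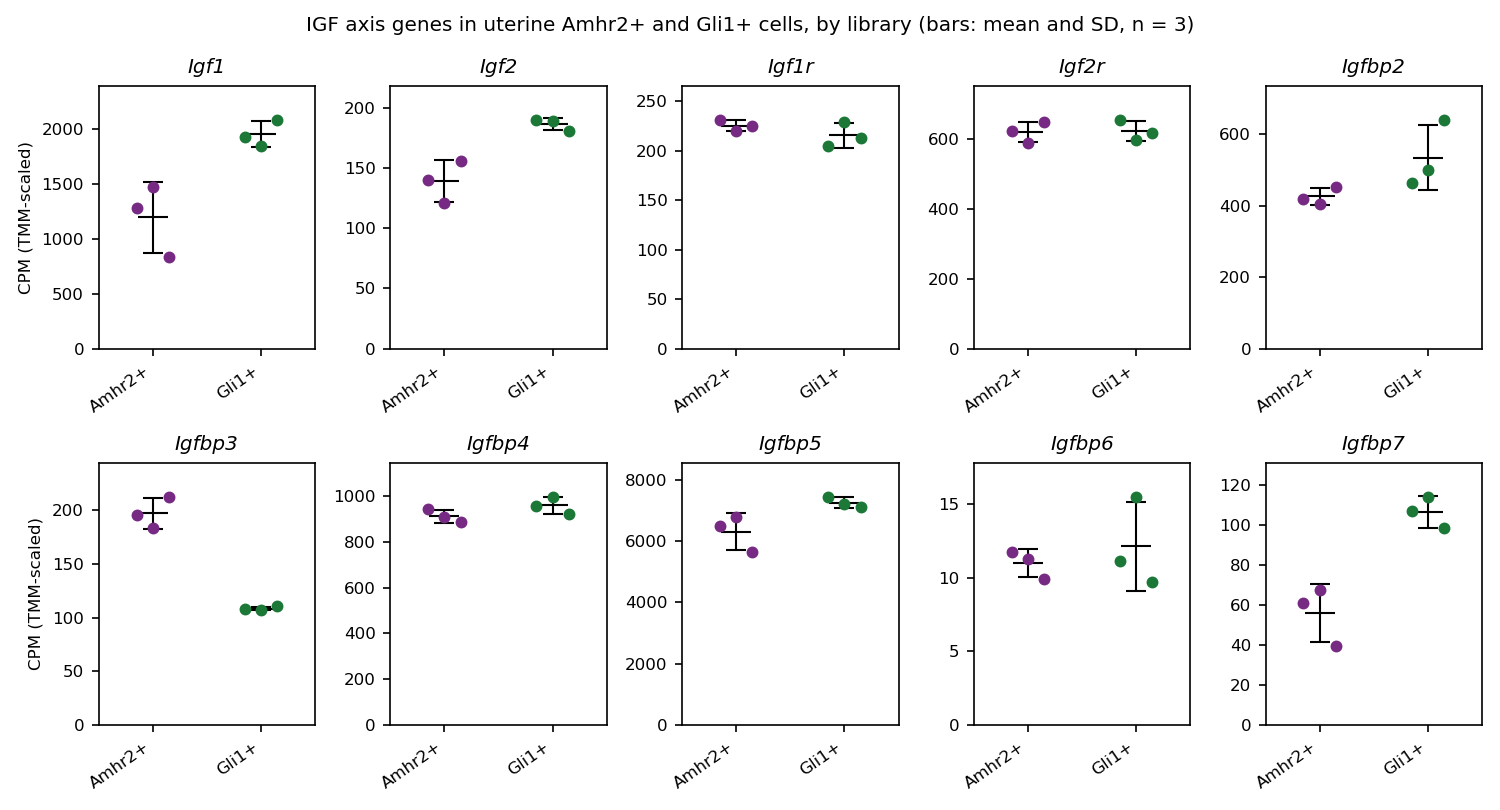
Normalised level in CPM of each of the 10 genes in every uterine library, with group mean and SD (n = 3) in black and each panel on its own scale from 0. Igfbp3 is higher in all Amhr2+ libraries, Igf1, Igf2 and Igfbp7 are lower in all of them, and Amhr2+ replicate 3 is the lowest for Igf1 and Igfbp7.

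Other genes of the pathway were read from a list of 36, of which 33 were tested in the fetal table and 32 in the uterine table (Ins1, Ins2 and Igfals were tested in neither). Between the sexes 7 of 33 were called at E14.5 (4 higher in XX, 3 lower, beside 6.28% of all genes called) and 17 at E16.5 (8 higher, 9 lower, beside 27.3%). With age 25 were called in XX (14 rose, 11 fell, beside 39.6%) and 15 in XY (13 rose, 2 fell, beside 23.3%). The interaction was called for 11 (beside 10% of all genes), and in the uterus 16 of 32 were called (8 higher in Amhr2+, 8 lower, beside 23.9%). The E14.5 count ranged from 2 to 11 on leaving out a single library.

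Of 6 proteases and inhibitors that control binding proteins, 5 rose with age in XX and Pappa2 fell, beside 21.0% of all genes that rose and 18.6% that fell. In XY 5 rose, beside 13.1% of all genes, and Stc1 was not called. Adam12, a protease that cuts IGFBP3 and IGFBP5, rose from 7.15 to 8.15 CPM to 53.7 to 60.6 in XX (log2 fold change 2.89 ± 0.117, SE, edgeR adjusted p = 1.32e-10) and from 9.69 to 12.7 CPM to 52.4 to 67.3 in XY (2.45 ± 0.111, 7.70e-10). Stc2, an inhibitor of PAPP-A, rose by 2.38 ± 0.131 and 2.32 ± 0.124 on the log2 scale (edgeR adjusted p = 2.57e-09 and 3.67e-09). Its relative Stc1 measured 138, 141 and 127 CPM in E16.5 XX and 43.4, 48.5 and 48.1 in E16.5 XY, a log2 fold change of 1.54 ± 0.118 (edgeR adjusted p = 2.09e-07).

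Pappa2, a protease of IGFBP3 and IGFBP5, went the other way at E16.5, at 24.2, 27.6 and 24.1 CPM in XX and 37.5, 54.7 and 46.2 in XY (log2 fold change -0.87 ± 0.116, SE, edgeR adjusted p = 4.02e-05). Htra1, a secreted protease, rose by 1.3 ± 0.0905 on the log2 scale in XX (edgeR adjusted p = 3.31e-08). In the uterus Pappa, the gene of the IGFBP4 protease PAPP-A, measured 9.07, 9.33 and 8.10 CPM in Amhr2+ and 44.7, 48.5 and 46.9 in Gli1+ cells. The populations were far apart, with a log2 fold change of -2.40 ± 0.0854 (edgeR adjusted p = 2.65e-06), and Pappa2 was lower by a log2 fold change of -1.64 ± 0.110 (4.10e-05). Adam12 was lower as well, at -1.03 ± 0.206 (edgeR adjusted p = 0.0132). Htra1 went the other way, averaging 68.1 CPM in Amhr2+ cells against 35.6 in Gli1+ (log2 fold change of 0.94 ± 0.134, edgeR adjusted p = 0.00218). Of the 6 in this group, 4 were lower and 1 higher, beside 13.7% and 10.1% of all genes.

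Inside the cell, Irs4, an adaptor of the insulin and IGF1 receptors, was the pathway gene with the greatest called sex difference at E16.5 among those at 10 CPM or more in the higher group. Igfbpl1, a binding protein relative averaging 0.947 CPM in XX and 0.0983 in XY, had a larger one (log2 fold change 3.30 ± 0.399, edgeR adjusted p = 1.36e-05). Irs4 measured 8.50, 6.65 and 5.41 CPM in XX and 35.4, 51.1 and 45.5 in XY, a log2 fold change of -2.68 ± 0.182 (SE, edgeR adjusted p = 1.02e-07). At E14.5 it lay between 4.22 and 7.27 CPM in all 6 libraries, and it rose in XY by 2.91 ± 0.186 (edgeR adjusted p = 8.09e-08). In uterine Amhr2+ cells it was higher than in Gli1+ cells, at 12.9 to 14.9 against 3.0 to 6.29 CPM (log2 fold change 1.58 ± 0.235, edgeR adjusted p = 0.00247). Pik3r3, a regulatory subunit of PI3 kinase, was lower in XX at both ages (log2 fold changes -0.44 ± 0.109 and -1.0 ± 0.107, edgeR adjusted p = 0.0239 and 3.38e-06).

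At E14.5 the adaptor Grb14 (-1.10 ± 0.134, SE, edgeR adjusted p = 0.000112) and Adam12 (-0.54 ± 0.119, 0.0114) were lower in XX. Igf2bp1, a fetal binder of Igf2 mRNA, fell with age by 1.11 ± 0.0750 on the log2 scale in XX and by 1.01 ± 0.0748 in XY (edgeR adjusted p = 2.27e-08 and 1.05e-07). The interaction was called for Irs4 (-2.27 ± 0.271, edgeR adjusted p = 0.000101), Stc1 (1.35 ± 0.167, 0.000101), Pappa2 (-1.22 ± 0.165, 0.000170) and Htra1 (0.86 ± 0.126, 0.000333) among others.

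H19, the imprinted RNA expressed from the maternal copy beside Igf2, measured 6255, 6111 and 5855 CPM in E16.5 XX and 4813, 4377 and 4814 in E16.5 XY. As with Igf2, the XX libraries were higher (log2 fold change 0.38 ± 0.0697, SE, edgeR adjusted p = 0.000727). H19 rose with age in XX by 0.53 ± 0.0698 (edgeR adjusted p = 2.54e-05), where Igf2 did not rise.

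The genes whose log2 level followed a member most closely over the 12 fetal libraries were ranked by Pearson's r among 10456 genes, as a description of 4 groups and not of 12 independent points. For Igf1 they were Epdr1 (r = 0.998), Gng12 (0.990) and Phactr1 (0.988). For Igfbp3, the gene with the widest range, they were Hmga2 (r = 0.994), Sema3e (0.994) and Arap3 (0.991). For Igf2 the highest values were lower, with Igsf9 (r = 0.957), Msi1 (0.953) and Shank3 (0.947). Libraries of a group share their condition, and all 12 share the kit.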

How the data were processed

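Raw read counts per gene were used as deposited by the authors, in a fetal and a uterine table. Per the labels' protocols, the fetal kit did not keep strand and the uterine kit did, so the tables were fitted separately and never set against each other. The submitters' processing notes name STAR 2.5, featureCounts, Subread 1.5.0-p1, Bowtie 1.2, SAMtools 1.3.1, Picard, bedtools 2.24.0 and MACS2 2.1.1, and the mm10 build. Annotation version, use of strand and treatment of reads on several genes are not given in the sources used here, so overlapping and antisense genes are uncertain. The ATAC-seq peaks are a deposited list of positions without scores.

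Genes were kept by filterByExpr and tested with edgeR 4.0.16 (R 4.3.3; TMM scaling, robust quasi-likelihood fit, group means, Benjamini-Hochberg adjustment, threshold 0.05). SE is the absolute log2 fold change over the square root of F. CPM is on the TMM-scaled library size, and exon lengths are unions of GENCODE vM21 exons (GRCm38). The script was tested on simulated data. Replicate libraries varied by more than sampling noise on average. The mean chi-square of paired counts was 3.60 to 91.0, where sampling noise gives about 1, and it was highest between E16.5 XY replicates 1 and 3. The median over genes was 0.883 to 6.70. Such values cannot tell separate animals from separate libraries of one pool. Dissociation response genes summed to 3600 to 17597 CPM within E16.5 XY and to 1185 to 11467 within uterine Gli1+ cells. At E16.5 the deviations of same-numbered XX and XY libraries had correlations of 0.28, 0.11 and 0.40. XX replicate 2 correlated as much with XY replicate 1 (0.11), and same-numbered uterine libraries gave 0, 0.22 and 0.24. At E14.5 same-numbered XX and XY libraries gave 0.07, 0.05 and 0.05, and the other pairs -0.04 to -0.01. Between ages, same-numbered libraries of a sex gave -0.08 to 0.04. With 3 libraries per group these values cannot show whether the numbers pair libraries, and the labels do not say.

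Alternatives were RLE scaling, library size alone, no filter, DESeq2 1.42.0, a replicate block, a fit of the 6 libraries compared, and leaving out each library. Other pathway genes are named where called, at 10 CPM or more in the higher group, with up to 4 of the largest change per comparison, of which 1 is not reported here; the 3 most alike genes are named for Igf1, Igf2 and the member of widest range. The 10 members and all gene lists were chosen with earlier results of these data known. Promoter windows are from RefSeq (GRCm38.p6), and all 10 members matched.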

Additional observations from a re-analysis of the deposited data

Results flagged for a closer look

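The XX minus XY difference changed between E14.5 and E16.5 for 6 genes, by a test of that difference (edgeR's quasi-likelihood interaction term, 3 libraries in each of 4 groups). On the log2 scale the value was 0.93 for Igf1 (adjusted p = 6.45e-05), 0.46 for Igf2 (0.0371), -0.80 for Igfbp2 (0.000331), 0.82 for Igfbp5 (0.000700), -0.50 for Igfbp6 (0.0320) and -0.68 for Igfbp7 (0.0210). The log2 change with age was higher in XX than in XY for Igf1, Igf2 and Igfbp5, and lower for Igfbp2, Igfbp6 and Igfbp7. Only the calls of Igf1, Igfbp2 and Igfbp5 were made in all 17 alternatives. Those of Igf2 and Igfbp6 were lost in 9 each, and that of Igfbp7 in 3.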

How the results depend on the processing

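Of 760 log2 fold changes recomputed for the 10 genes, 671 kept their direction and side of the threshold, 58 lost the call, 8 gained it and 23 changed sign. The calls of Igfbp6 and Igfbp7 between the sexes at both ages, of Igf1, Igfbp2 and Igfbp5 at E16.5 and of Igfbp3 over age held in all alternatives run. The number of genes of the axis called in the uterus was 4, and 2 without the filter. On leaving out each library, calls among the 10 ranged from 2 to 3 between the sexes at E14.5 and 7 to 8 at E16.5, 4 to 5 with age in XX, 8 to 9 with age in XY, 3 to 6 for the interaction and 3 to 4 in the uterus. With a replicate block the 6 counts were 4, 8, 5, 9, 6 and 5. Libraries of a block are known to share only a number. Between the sexes at E16.5 the block changed no call. It added Igfbp3 at E14.5 (edgeR adjusted p = 0.00605) and uterine Igfbp2 (0.0153) and Igfbp5 (0.0383). Lost were Igfbp2 with age in XX (0.0628) and uterine Igf1 (0.114).

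All values that changed sign belonged to uncalled differences near 0. For Igf2r in the uterus they were 0.0018 (RLE), 0.0783 (library size), 0.0143 (no filter) and 0.0017 (DESeq2), with -0.037 to 0.037 on leaving out a library. For Igfbp4 they were -0.0302 with age in XX and 0.0091 in the uterus by library size. Without the filter, Igfbp5 and Igfbp6 with age in XX gave 0.0007 and 0.0111. Leaving out each library gave ranges of -0.0156 to 0.0287 for Igfbp4, -0.0779 to 0.0489 for Igfbp5 and -0.0608 to 0.0618 for Igfbp6 with age in XX. At E14.5 the ranges were -0.117 to 0.0006 for Igf2r, -0.0961 to 0.0465 for Igf2 and -0.0757 to 0.0479 for Igfbp2. For the Igfbp3 interaction the range was -0.234 to 0.224, and for uterine Igfbp6 -0.276 to 0.0732. The cause was not tested.

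The number of all genes called moved by over 1.5 times at E14.5 (1121, and 553 to 686 without any XX library or XY replicate 2 or 3), for the interaction (1790, and 2687 without E16.5 XY replicate 1) and in the uterus (3866, and 1949 without Amhr2+ replicate 1 or 2521 without Gli1+ replicate 1). Scaling by library size alone moved the share of calls that were higher from 42.5% to 63.5% in the uterus and from 56.1% to 41.2% with age in XY. Depth was not limiting for these genes, whose lowest level was 7.68 CPM. Leaving out 1 of 3 libraries assumes that the remaining pair varies like the other groups.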
